A study of Mus musculus with 8 samples.

Results

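The E2F transcription factors, FoxM1 and B-Myb are proteins that switch the gene programs of DNA replication and mitosis on or off. Their genes, *E2f1* to *E2f8*, *Foxm1* and *Mybl2* (which encodes B-Myb), were chosen by name, and all 10 were measured, each by 1 probe set, among 25428 probe sets in all. In lungs of mice kept in hypoxia, the mean level of *Foxm1* was 2.49-fold that in normoxia, with all 4 hypoxic mice above all 4 normoxic mice. *E2f3* was the other gene whose groups did not overlap, at 1.49-fold. The atypical genes *E2f7* and *E2f8* were 1.46-fold and 1.64-fold higher on average, and *E2f5* was the single member with a lower mean, at 0.701-fold. In a list of genes that FoxM1 and B-Myb are known to drive in G2 and mitosis, 45 of 45 were higher on average in hypoxic lungs. That list was written with earlier results of these arrays known, so this count is a description. None of these differences passed an adjusted p of 0.05 over all probe sets with limma.

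RNA of 1 lung lobe per mouse had been hybridised to Affymetrix Mouse Gene 2.0 ST arrays, 1 for each of 8 adult male animals with the genotype *Nfat5*fl/fl. Mice F, G, H and I stayed in normoxia, and mice A, B, C and D were kept at 10% oxygen for 7 days. In *Nfat5*fl/fl mice an exon of *Nfat5*, the gene of a stress-responsive transcription factor, is flanked by loxP sites and still present. The methods state that the line was crossed with SM-MHC-CreERT2 mice, in which a smooth muscle myosin promoter drives a tamoxifen-inducible Cre, and that mice of this control genotype received the solvent miglyol in place of tamoxifen. This applied to both groups. Values are log2 intensities, so that a difference of 1 is a doubling of the signal, and levels of different genes were not set against each other, since probes differ in brightness. Defining markers of lung tissue were bright in every mouse, with *Sftpc* (surfactant protein C, made by alveolar type 2 cells) between 12.6 and 13.6. In a tissue extract, fewer cells of a type and less RNA per cell cannot be told apart.

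E2F proteins bind DNA together with a DP partner and are held in check by the pocket proteins RB1, RBL1 (p107) and RBL2 (p130). Cyclin-dependent kinases phosphorylate the pocket proteins as cells leave G1, which frees the activator E2Fs to drive the genes of DNA replication. In resting cells RBL2 or RBL1, E2F4 or E2F5 and the MuvB core form the DREAM complex, which silences cell cycle genes. As cells go on through S phase, B-Myb joins MuvB and then FoxM1 is recruited, and together they activate the genes of G2 and mitosis, many of which carry a cell cycle homology region (CHR) in their promoters. The adult lung is mostly quiescent, and structural remodelling of its vessels under chronic hypoxia includes cell division.

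Several of these regulators are known to be cell cycle genes themselves, so their promoters are shown here beside those of their targets. RefSeq promoter windows from the mouse assembly GRCm38.p6, each 250 bases before to 50 bases after a listed start, were found for 7 of the 10 members: *E2f1*, *E2f2*, *E2f3*, *E2f6*, *E2f7*, *E2f8* and *Mybl2*. The words searched on both strands were the E2F core (spelled TTGGCGC, or with a changed base as TTGGCGG, or as the word TTCGCGC, or the word TTCCCGC, or the word TTGCCGC), the CHR (TTTGAA) and the CCAAT box, whose reverse ATTGG can overlap an E2F core. Stretches of 120 bases up to a listed start are shown for the 4 members that hold an E2F core word there, written 5′ to 3′ on the gene's strand with the words in capitals. The *E2f3* stretch (chr13:29986064-29986183, minus strand) holds 2 CCAAT boxes, a CHR word and an E2F core. The *E2f7* stretch (chr10:110745319-110745438, plus strand) holds an E2F core and 2 CCAAT boxes. In *E2f8* (chr7:48881597-48881716, minus strand) a CCAAT box overlaps an E2F core and a CHR word lies close to the start, and in *Mybl2* (chr2:163054515-163054634, plus strand) an E2F core lies close to the start.
E2f3: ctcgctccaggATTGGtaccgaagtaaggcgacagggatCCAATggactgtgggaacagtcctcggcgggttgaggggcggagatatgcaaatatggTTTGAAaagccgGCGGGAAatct
E2f7: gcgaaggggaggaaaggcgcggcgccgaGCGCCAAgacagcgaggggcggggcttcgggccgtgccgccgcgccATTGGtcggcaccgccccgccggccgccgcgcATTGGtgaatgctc
E2f8: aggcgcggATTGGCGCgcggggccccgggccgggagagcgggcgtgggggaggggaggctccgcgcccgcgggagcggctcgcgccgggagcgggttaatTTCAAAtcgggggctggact
Mybl2: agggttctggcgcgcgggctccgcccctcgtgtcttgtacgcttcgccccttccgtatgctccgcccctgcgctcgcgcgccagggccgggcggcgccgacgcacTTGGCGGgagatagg

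An E2F core word stood somewhere in the windows of 5 of the 7 members, *E2f2*, *E2f3*, *E2f7*, *E2f8* and *Mybl2*, against 13.2% of all 27025 genes in the promoter table. In *E2f2* these words lay after the listed start. The CHR word was found for *E2f2*, *E2f3* and *E2f8*, against 20.2% of all genes, and the CCAAT box for these 3 and *E2f7*, against 41.1%. The E2F words were settled after the members' promoters had been read, so the members' count is a description. A word in a promoter is a match of letters and not a measured binding site.

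The target lists differed in the words they held, counted with words and a window that were settled after promoters had been seen. Over all genes the shares were 13.2% for the E2F core, 20.2% for the CHR word and 41.1% for the CCAAT box. Of 30 genes of the G1/S list with a window, 23 (76.7%) held an E2F core and 3 a CHR word, while of 38 genes of the G2/M list 7 (18.4%) held an E2F core and 25 (65.8%) a CHR word. A CCAAT box was found for 20 of the G1/S and 30 of the G2/M genes. Sites of 30 bases are shown for genes whose levels are described below, with the word in capitals: the E2F core of the replication genes *Mcm3*, *Mcm7* and *Lig1*, and the CHR of the mitotic genes *Aurka*, *Ccnb2*, *Ect2* and *Ube2c*. They lie at chr1:20820276-20820305, chr5:138171891-138171920, chr7:13279256-13279285, chr2:172370521-172370550, chr9:70421533-70421562, chr3:27153822-27153851 and chr2:164769888-164769917 in this order, with *Lig1* and *Ube2c* on the plus strand and the others on the minus strand. The split is not strict: *Ect2* also holds an E2F core (chr3:27153863-27153892, minus strand), and in *Mcm2*, another helicase gene, a CHR word but no E2F core word was found (chr6:88898833-88898862, minus strand), and both sites are shown last.
Mcm3: taaacttccgtgGCGGGAAaacttgggaag
Mcm7: ccccctatctgaTTGGCGGgttctcagccg
Lig1: tcagaattagtgGCGCCAAgagaagagggg
Aurka: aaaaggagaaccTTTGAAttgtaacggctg
Ccnb2: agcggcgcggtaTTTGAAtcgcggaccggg
Ect2: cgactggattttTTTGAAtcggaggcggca
Ube2c: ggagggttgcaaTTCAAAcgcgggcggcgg
Ect2, E2F core: ggttgacagagcGCGCCAAtcagcatggct
Mcm2, CHR: agggctcagcctTTTGAAagctgtgggcgg

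*Foxm1* encodes the forkhead factor that activates mitotic genes. Its level was 4.91, 4.61, 4.21 and 3.84 in the normoxic mice F, G, H and I, and 5.74, 6.33, 5.30 and 5.47 in the hypoxic mice A, B, C and D. The groups did not overlap: mouse C was the lowest hypoxic and mouse F the highest normoxic mouse. The mean was 4.39 ± 0.46 (SD, n = 4) in normoxia and 5.71 ± 0.45 (SD, n = 4) in hypoxia. The log2 difference was 1.32 with a standard error of 0.27 and a 95% interval from 0.73 to 1.91, and no other member had a larger one. By limma its unadjusted p was 0.000442, at place 83 among the probe sets, and its adjusted p was 0.136. Leaving out 1 mouse at a time gave differences from 1.11 without mouse B to 1.49 without mouse F.

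*Mybl2* encodes B-Myb, which joins MuvB before FoxM1 does. Its level was 4.22, 4.33, 4.32 and 4.37 in normoxic and 4.66, 4.70, 4.85 and 4.15 in hypoxic mice. Mice A, B and C lay above all normoxic mice, whereas mouse D lay below all of them. The means were 4.31 ± 0.07 and 4.59 ± 0.31 (SD, n = 4 each), a log2 difference of 0.28 with a 95% interval from −0.09 to 0.66 (limma, adjusted p = 0.705). The difference was 0.43 without mouse D, still with an adjusted p of 0.366 by limma. *Foxm1* and *Mybl2* thus did not share their order among hypoxic mice: mouse C had the lowest *Foxm1* and the highest *Mybl2* level of the 4.

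**Figure D1:**
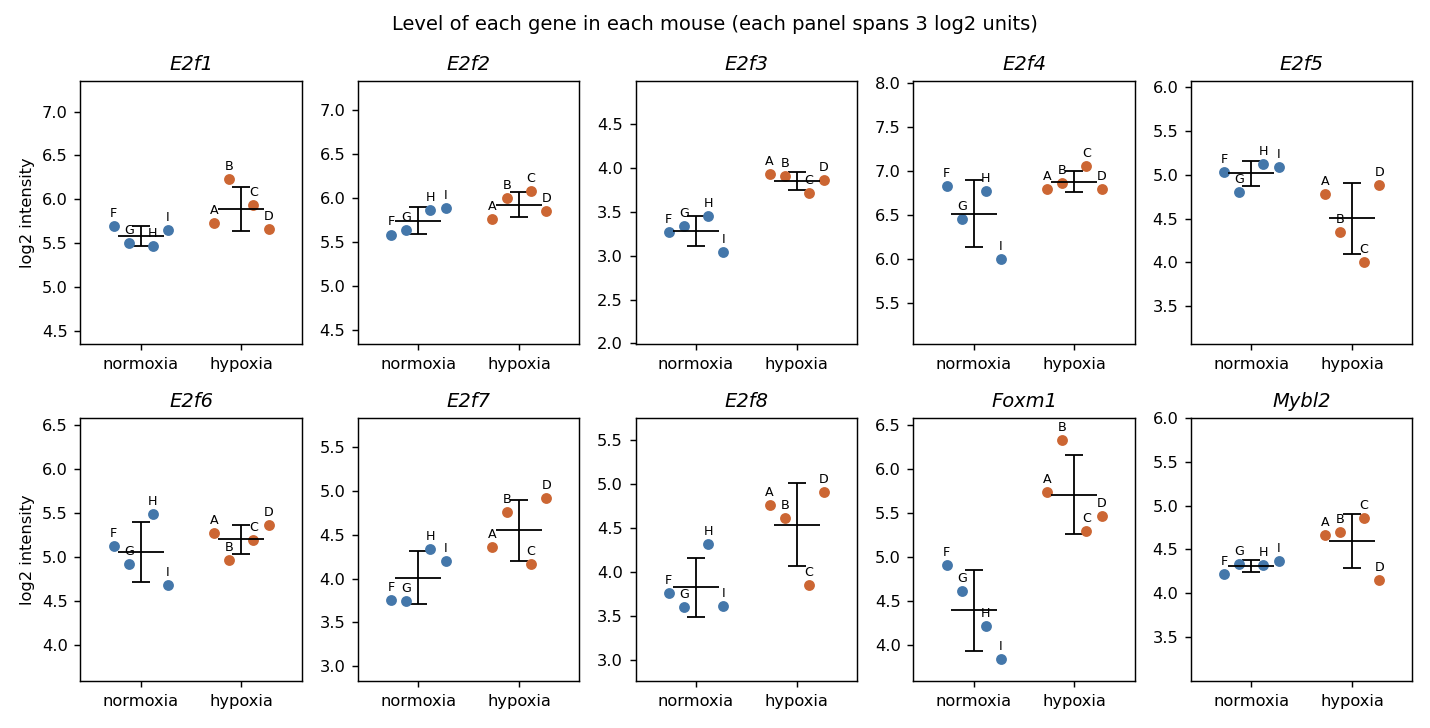
Level of each of the 10 genes in each mouse, as log2 intensity on the vertical axes, for 4 normoxic (blue) and 4 hypoxic (orange) mice with their letters. Horizontal lines are means and bars are 1 SD. Each panel spans the same number of log2 units, so differences between groups can be compared across panels but levels of different genes cannot. The groups are apart for E2f3 and Foxm1.

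Of the activators, *E2f1* and *E2f2* overlapped between groups and *E2f3* did not. *E2f1*, the E2F most closely tied to S phase entry, was at 5.70, 5.50, 5.47 and 5.65 in normoxic and 5.73, 6.23, 5.93 and 5.66 in hypoxic mice. Hypoxic mice A, B and C lay above all normoxic mice, A by a narrow margin, and D lay among them. Its log2 difference was 0.31 with a 95% interval from −0.05 to 0.66 (limma, adjusted p = 0.660), and 0.19 without mouse B. *E2f2*, an activator that acts redundantly with the others, was at 5.58, 5.63, 5.86 and 5.88 in normoxic and 5.76, 6.001, 6.08 and 5.85 in hypoxic mice, with a difference of 0.18 and an interval from −0.14 to 0.51 (limma, adjusted p = 0.789). Its 2 highest mice were hypoxic mice C and B.

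*E2f3* encodes a long activator isoform and a short isoform with a start of its own, which 1 probe set cannot tell apart. The level of *E2f3* was 3.27, 3.34, 3.46 and 3.05 in normoxic mice and 3.94, 3.90, 3.71 and 3.86 in hypoxic mice. All hypoxic mice lay above all normoxic mice, and the spread among hypoxic mice was the smallest of the 10 genes in that group. The mean was 3.28 ± 0.17 in normoxia and 3.85 ± 0.10 in hypoxia (SD, n = 4 each). The log2 difference was 0.57 with a standard error of 0.15 and a 95% interval from 0.25 to 0.90. With limma the unadjusted p was 0.00231, at place 262, and the adjusted p was 0.224. *E2f3* was dim on these arrays, with a mean below the median of all probe sets.

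The repressors *E2f4* and *E2f5* had differences of opposite sign. *E2f4* encodes the E2F that is most abundant in resting cells and relies on pocket proteins to silence genes. Its level was 6.84, 6.45, 6.77 and 6.0 in normoxic and 6.80, 6.87, 7.05 and 6.80 in hypoxic mice, a difference of 0.36 with an interval from −0.06 to 0.79 (limma, adjusted p = 0.665). Normoxic mouse I was the lowest of all 8, and without it the difference was 0.19.

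*E2f5* encodes the close relative of E2F4 that pairs mainly with RBL2. The level of *E2f5* was 5.03, 4.81, 5.13 and 5.09 in normoxic mice and 4.78, 4.34, 4.01 and 4.88 in hypoxic mice. Hypoxic mice A, B and C lay below all normoxic mice, and mouse D lay just above the lowest of them. The mean was 5.01 ± 0.14 in normoxia and 4.50 ± 0.40 in hypoxia (SD, n = 4 each). The log2 difference was −0.51 with a standard error of 0.20 and a 95% interval from −0.95 to −0.07. Its unadjusted p was 0.0271 and its adjusted p 0.500 by limma. The unadjusted p rose above 0.05 when normoxic mouse H or I or hypoxic mouse B or C was left out and with the unmoderated test that the methods name, with differences between −0.64 and −0.35 over all 8 mice left out in turn.

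*E2f6* encodes a repressor that needs no pocket protein and acts with polycomb proteins. Its level was 5.13, 4.92, 5.50 and 4.68 in normoxic and 5.27, 4.97, 5.20 and 5.37 in hypoxic mice. The normoxic mice spanned both the lowest and the highest value of all 8, and the difference was 0.14 with an interval from −0.27 to 0.56 (limma, adjusted p = 0.880). The difference was 0.02 without mouse I and 0.29 without mouse H.

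The atypical *E2f7* and *E2f8* encode repressors that bind DNA without a DP partner, are made late in S phase and shut E2F target genes off again. *E2f7* was at 3.75, 3.75, 4.33 and 4.20 in normoxic and 4.36, 4.75, 4.16 and 4.92 in hypoxic mice, and *E2f8* at 3.76, 3.60, 4.32 and 3.61 in normoxic and 4.77, 4.62, 3.85 and 4.91 in hypoxic mice. In both genes mouse D was the highest and mouse C the lowest of the hypoxic mice, and mouse C lay within the normoxic range, while mouse H was the highest normoxic mouse. The difference of *E2f7* was 0.54 with a standard error of 0.21 and a 95% interval from 0.08 to 1.01, with an unadjusted p of 0.0260 and an adjusted p of 0.495 by limma. This unadjusted p rose above 0.05 without normoxic mouse F or G or hypoxic mouse B or D, with differences down to 0.42 without mouse D. The difference of *E2f8* was 0.71 with a standard error of 0.25 and an interval from 0.17 to 1.26, with an unadjusted p of 0.0151 and an adjusted p of 0.422 by limma. Without mouse C the difference of *E2f8* was 0.94 (limma, adjusted p = 0.182). With the unmoderated test that the methods name, neither gene had an unadjusted p under 0.05.

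Counted over the 10 genes, the mean was higher in hypoxia for 9 and lower for 1, and the median difference was 0.34, against −0.0049 over all probe sets. Below an unadjusted p of 0.05 by limma, 4 of 10 were higher (*E2f3*, *E2f7*, *E2f8* and *Foxm1*), a share of 40% against 5.34% of all probe sets, and 1 of 10 was lower (*E2f5*), against 3.15%. At an adjusted p of 0.05, 0 of 10 passed, as did 0% of all probe sets. The groups did not overlap for 2 of 10 genes with hypoxia higher, *E2f3* and *Foxm1*, against 3.01% of all probe sets, and for 0 of 10 with hypoxia lower, against 1.61%. The intervals of *E2f1*, *E2f2*, *E2f4*, *E2f6* and *Mybl2* held 0, which with 4 mice a group does not show that they were unaltered.

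**Figure D2:**
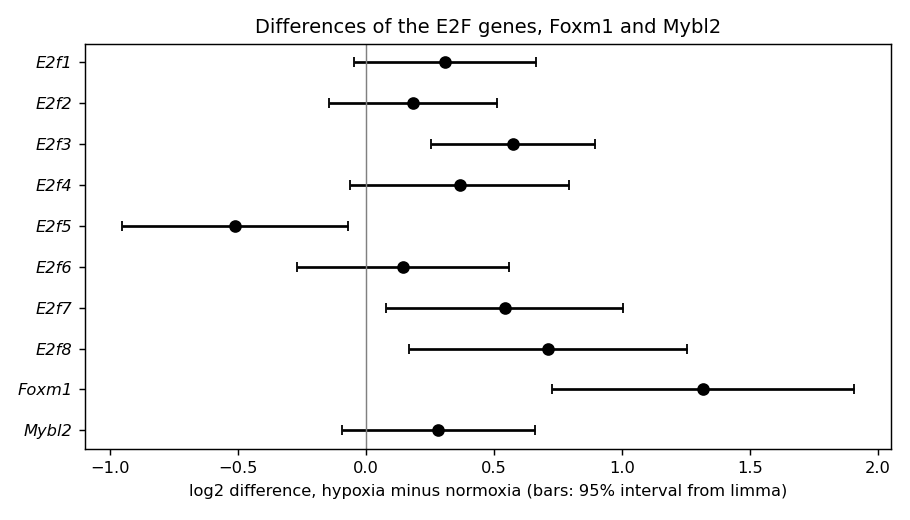
Log2 difference between hypoxia and normoxia for each of the 10 genes on the horizontal axis, as a point with its 95% interval from limma over 8 mice. The interval lies above 0 for E2f3, E2f7, E2f8 and Foxm1, below 0 for E2f5, and holds 0 for the other genes.

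The partners of these factors differed less. Of 12 DP, pocket protein, MuvB and other Myb genes, 2 were higher and 0 lower by an unadjusted p under 0.05, against 5.34% and 3.15% of all probe sets, and the median difference was 0.16 (smallest limma adjusted p = 0.529). The count of higher genes fell to 0 with array weights, with the unmoderated test, and without normoxic mouse I or hypoxic mouse A or D, and to 1 without mouse F, H or B. The higher genes were *Rbl1*, whose product p107 replaces p130 in cycling cells, with a difference of 0.56, and *Myb*, known from immature blood cells, with 0.44. *Rbl1* itself is an E2F target, and its hypoxic mice were at 5.97, 5.73, 5.12 and 6.15, with mouse C again the lowest. *Rbl2*, the pocket protein of resting cells, had a difference of −0.34 (limma, adjusted p = 0.612). The MuvB genes *Lin9*, *Lin37*, *Lin52*, *Lin54* and *Rbbp4* lay between −0.01 and 0.23, and the DP genes *Tfdp1* and *Tfdp2* had differences of 0.28 and −0.18.

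Upstream of the E2Fs, 10 of 18 cyclins, kinases and inhibitors were higher and 0 lower by an unadjusted p under 0.05. Over all probe sets these shares were 5.34% and 3.15%. The median difference was 0.40 and the smallest limma adjusted p was 0.177. The gene with that p was *Cdkn1a*, which encodes the kinase inhibitor p21, at 8.35, 7.95, 7.91 and 7.57 in normoxic and 8.73, 9.34, 8.52 and 8.83 in hypoxic mice. Its groups did not overlap and its difference was 0.91 with a standard error of 0.21. Of the next 3 genes by p, *Cdk2*, the kinase that acts at the G1/S boundary, had a difference of 0.63, and *Cdkn2d* and *Cdkn2c*, which encode inhibitors of CDK4 and CDK6, had 0.67 and 0.69. Genes with a lower mean were *Cdkn2b*, another such inhibitor, with −0.42, *Myc* with −0.13, *Cdkn2a* with −0.12 and *Cdkn1b* with −0.10. The 10 higher genes held several drivers as well as several inhibitors of the kinases that release E2Fs. The 4 named here are only those with the smallest p.

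Of 40 G1/S target genes of the E2Fs, 18 were higher and 0 lower by an unadjusted p under 0.05. Over all probe sets these shares were 5.34% and 3.15%. The median difference was 0.40. The mean was higher in hypoxia for 38 of the 40, and the smallest limma adjusted p was 0.118. The 4 genes with the smallest p were *Mcm7*, *Mcm2* and *Mcm3*, subunits of the replicative helicase, and *Lig1*, the ligase that joins Okazaki fragments. *Mcm2* was at 5.59, 5.62, 5.20 and 4.29 in normoxic and 6.39, 6.67, 6.40 and 6.47 in hypoxic mice, a difference of 1.31. All hypoxic mice lay above all normoxic mice, with little spread among them. The differences of *Mcm3*, *Mcm7* and *Lig1* were 1.11, 1.06 and 0.98. The repair gene *Ung* had a lower mean, with a difference of −0.04.

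Of 45 G2/M target genes of FoxM1 and B-Myb, 40 were higher and 0 lower by an unadjusted p under 0.05. Over all probe sets these shares were 5.34% and 3.15%. In 30 of the 45 the groups did not overlap, with hypoxia higher, against 3.01% of all probe sets. The median difference was 1.18, with a range from 0.02 to 2.22 and a smallest limma adjusted p of 0.0551. Cyclin B2 (*Ccnb2*) was at 4.03, 4.88, 4.42 and 4.21 in normoxic and 6.75, 7.05, 5.67 and 6.58 in hypoxic mice, a difference of 2.13. Mouse C was the lowest hypoxic mouse and still above all normoxic mice. The mitotic kinase gene *Aurka* had a difference of 1.84, the ubiquitin-conjugating enzyme gene *Ube2c*, which serves the anaphase-promoting complex, 2.07, and the cytokinesis gene *Ect2* 2.16. Both target lists were written from textbook knowledge with earlier results of these arrays known, so their counts describe these lungs and are not independent of those results.

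**Figure D3:**
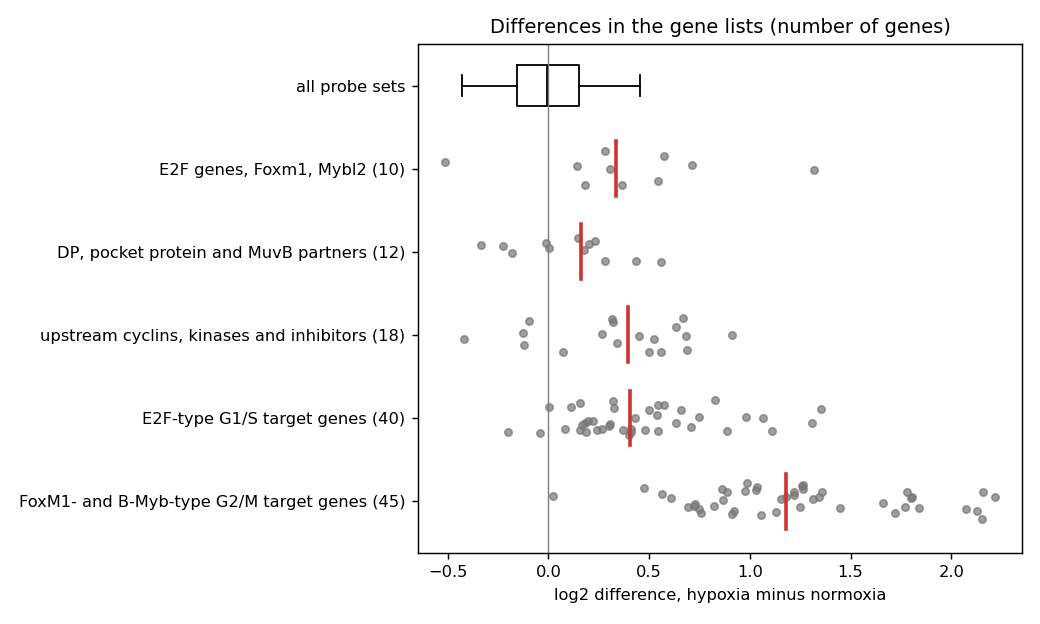
Log2 difference between hypoxia and normoxia on the horizontal axis for every measured gene of 5 lists (grey points, with red lines at the list medians) beside all probe sets (box from the lower to the upper quartile with the median, whiskers from the 5th to the 95th percentile). The medians are 0.34 for the 10 regulators, 0.16 for their partners, 0.40 for upstream genes and for G1/S targets, and 1.18 for G2/M targets.

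Set mouse by mouse, with each gene's value taken relative to its mean over the 8 mice, the G2/M genes averaged −0.67, −0.36, −0.63 and −0.79 in normoxic mice and 0.89, 0.99, −0.12 and 0.69 in hypoxic mice. The G1/S genes averaged −0.17, −0.09, −0.24 and −0.42 in normoxic and 0.40, 0.33, −0.03 and 0.23 in hypoxic mice. In both lists hypoxic mouse C lay apart from the other 3 hypoxic mice and above all normoxic mice. Mouse C was also the lowest hypoxic mouse for *Foxm1*, *E2f3*, *E2f7*, *E2f8* and *E2f5*, and the highest for *E2f2*, *E2f4* and *Mybl2*. Without it, 44 of 45 G2/M genes and 21 of 40 G1/S genes were higher at an unadjusted p under 0.05, as were 4 of the 10 regulators, with 0 lower. Of the 18 upstream genes, 10 were higher with all mice and 10 without mouse C, against 7 without mouse A and 6 without mouse B. The count over all 25428 probe sets moved as well. It was 1359 higher with all mice, 1128 without mouse C, 1171 without mouse A and 856 without mouse B. Without mouse C, 645 of all probe sets were lower.

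**Figure D4:**
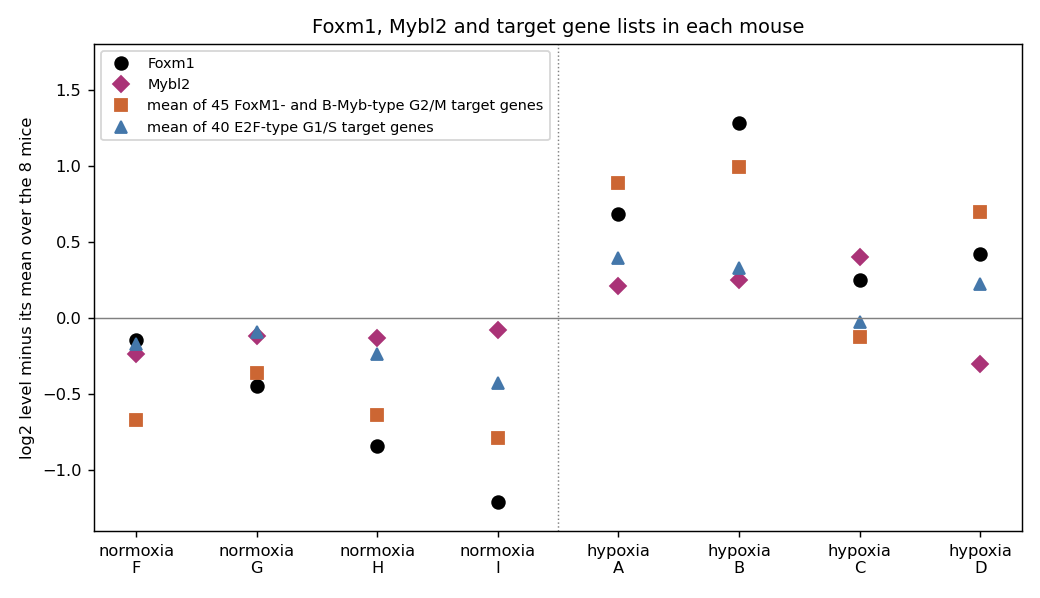
Levels of Foxm1 and Mybl2, and the mean over 45 G2/M target genes and over 40 G1/S target genes, in each of the 8 mice, as log2 level minus the mean over all mice on the vertical axis. Hypoxic mouse C lies at −0.12 for the G2/M genes, below the other hypoxic mice, and its Mybl2 level is the highest of all.

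Ranked by the root mean square difference between centred log2 profiles over the 8 mice, the named genes most like *Foxm1* were *Fscn1* (0.124), *Mcm5* (0.131), *Tubb6* (0.155) and *Adam15* (0.209). *Mcm5* encodes another subunit of the replicative helicase and *Fscn1* the actin-bundling protein fascin. Their own differences lay between 1.12 for *Fscn1* and 1.35 for *Mcm5*. Of these genes most like *Foxm1*, only *Mcm5* is on the cell cycle lists. The genes most like *Mybl2* were *Elof1* (0.0563), *Sag* (0.0641), *Fbf1* (0.0649), *Bpifb5* (0.0675) and *Tmem151a* (0.0695), none of which is on the cell cycle lists, with differences between 0.24 and 0.29. A small root mean square is easier to reach for a gene that varies as little as *Mybl2* did.

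Markers of other cell types also differed between the groups. At an unadjusted p under 0.05 by limma, 5.34% of all probe sets were higher and 3.15% lower in hypoxia. These shares apply to each count of markers below. Lower in hypoxia were 10 of 12 adipocyte, 7 of 12 heart muscle, 5 of 12 skeletal muscle and 7 of 9 B cell genes. In each of these lists 0 were higher. The mean level of the adipocyte list was 6.02 to 8.04 in normoxic and 5.37 to 5.70 in hypoxic mice, that of heart muscle 6.11 to 6.99 and 5.73 to 5.93, and that of skeletal muscle 3.81 to 7.13 and 3.77 to 4.83. For B cells it was 5.23 to 6.64 in normoxic and 4.78 to 5.17 in hypoxic mice. The adipokine gene *Adipoq* ranged from 4.58 to 7.06 in normoxic and from 3.98 to 4.37 in hypoxic mice. Of the structural lung cells, 4 of 12 endothelial, 4 of 10 smooth muscle and 4 of 10 fibroblast and pericyte genes were higher and 0, 0 and 1 lower. The mean levels ran from 8.46 to 8.84 in normoxia and from 8.77 to 9.03 in hypoxia for endothelial genes, from 6.38 to 6.96 and from 6.79 to 7.21 for smooth muscle genes, and from 6.80 to 7.29 and from 7.02 to 7.60 for fibroblast and pericyte genes. Of other lung and blood cells, 1 of 9 alveolar type 2, 1 of 7 alveolar type 1, 3 of 12 macrophage and 1 of 14 neutrophil genes were higher, and 1 macrophage, 1 neutrophil and 1 of 13 T and NK cell genes lower. For erythroid cells, which divide as they mature, 1 of 13 measured genes was higher and 0 lower, with mean levels from 3.90 to 3.99 and from 3.89 to 4.32. In lists this short, 1 called gene lies close to the share over all probe sets. The part of these cell types in the levels of the E2F genes, *Foxm1* and *Mybl2* was not tested, and the cells that held the transcripts were not resolved.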

How the data were processed

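The authors deposited log2 intensities, 1 column for each of 8 Affymetrix arrays and 1 array per mouse. Probes had been grouped into genes by Entrez ID with version 22 of a custom chip definition, and intensities quantile-normalized, as the methods state. RMA is named by the submitters' processing notes, with no version. How background was corrected, and whether other arrays were normalized with these, is not given in the sources used here. Array medians lay between 4.17 and 4.20. Mouse F is stored in finer steps, with 0.598% of its values on the step that holds 96.6% to 96.9% of values on the other arrays, and was used as it is. Arrays have no read depth, so the number of arrays limits the precision. The 25269 named probe sets took symbols from the platform's annotation table or, by Entrez ID, from RefSeq.

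Hypoxia minus normoxia was tested in R 4.3.3 with limma 3.58.1, which moderates the variances. Each of the 25428 probe sets entered, p-values were adjusted by Benjamini-Hochberg, and the threshold was 0.05. Mice are the replicates, and their letters do not pair the groups. The alternatives were a repeated quantile normalization, centring on the array median, a filter on dim probe sets, an intensity trend with robust variance, array weights, the methods' one-way ANOVA, and leaving out each of the 8 mice.

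All 10 members are named. Of each other list the up to 4 genes with the smallest p in each direction are named, with any partner gene allowed, and for *Foxm1* and *Mybl2* the 5 most similar genes. Of the genes this rule takes, 2 are not reported here. Of the marker lists, defining markers are named. The target sites shown belong to genes named by this rule. The members and lists were chosen with earlier results of these data known. The motif words were extended, and the searched window widened, after promoters had been seen. Plots and tables used Python 3.11.15, pandas 2.3.3 and matplotlib 3.10.9.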

Additional observations from a re-analysis of the deposited data

Results flagged for a closer look

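The 10 regulators and the genes named from the other lists gave 80 groups of 4 mice. Of these groups, 4 held a mouse that stood apart from the other 3 by Dixon's criterion, where chance gives about 1 in 20. None of them concerned the E2F genes, *Foxm1* or *Mybl2*. *Ect2* was at 5.32 in hypoxic mouse C and between 6.53 and 6.65 in the other hypoxic mice. *Mcm7* was at 4.62 in normoxic mouse I and between 5.24 and 5.35 in the other normoxic mice. *Rb1*, the gene of the founding pocket protein, was at 6.94 in hypoxic mouse D and between 6.22 and 6.34 in the other hypoxic mice. *Rbbp4*, a MuvB gene, was at 7.21 in normoxic mouse H and between 6.74 and 6.80 in the other normoxic mice.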

How the results depend on the processing

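The differences of the 10 regulators kept their sign and stayed above an adjusted p of 0.05 in all 139 values over 14 alternatives (smallest adjusted p = 0.0671, *Foxm1* by limma with dim probe sets left out). *E2f3* is not among the probe sets kept in that setting. The count of regulators at an unadjusted p under 0.05 was 2 higher (*E2f3* and *Foxm1*) and 0 lower by the one-way ANOVA, and 3 to 5 higher and 0 to 1 lower with 1 mouse left out. The partner genes gave 0 higher by array weights and by ANOVA, 1 lower by quantile normalization again, array weights and ANOVA, and 0 to 3 higher and 0 to 1 lower with 1 mouse left out. The upstream genes gave 1 lower by quantile normalization again, and 6 to 10 higher and 0 to 1 lower with 1 mouse left out. With dim probe sets left out, 11 G1/S genes were counted as higher. Leaving out 1 mouse gave 14 to 21 higher G1/S genes and 38 to 44 higher G2/M genes. Over all probe sets, 53 passed an adjusted p of 0.05 by limma with dim probe sets left out, 12 with an intensity trend and robust variance, 22 with array weights, and 0 to 33 with 1 mouse left out (23 without G, 14 without H, 33 without C). At an unadjusted p under 0.05 there were 866 higher without mouse I, 856 higher and 479 lower without mouse B, and 450 lower with dim probe sets left out. With all mice in the main fit, these counts were 1359 higher and 802 lower. Other settings gave larger counts, with 1698 higher without mouse D and 1554 higher without mouse H. Fewer probe sets or mice enter several of these settings, and counts rose in some and fell in others. The cause was not tested. No paired analysis was possible because the letters name separate mice and no number is shared between the groups.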
